A study of Mus musculus with 2 samples.

Results

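The matrix metalloproteinases (MMP), their tissue inhibitors (TIMP) and the ADAMTS proteases were followed in mouse gastrocnemius, the large muscle of the calf. The 46 genes were taken by symbol from the protein-coding transcripts of the deposited transcript tables: 23 Mmp genes, 4 Timp genes and 19 Adamts genes, of 55536 Ensembl genes and of 22015 nuclear protein-coding genes measured. The annotation gives 45 of them as protein-coding genes and Mmp1a as a polymorphic pseudogene. Stranded total RNA depleted of ribosomal RNA, with 300 ng of input and ERCC spike-in RNAs, was sequenced from the muscle of male B6CASTF1/J mice, an F1 cross, at 36 days of age. The 2 libraries are numbered by the labels as biological replicates 1 and 2, with separate mouse numbers but 1 shared donor entry. They form 1 group with no treatment and no control, so nothing could be tested between conditions. The spread between them may be partly technical. Levels below are TPM, a relative transcript abundance scaled by length, from the deposited gene tables.

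The expected counts of replicate 2 summed to 38754338 and those of replicate 1 to 36952277. A count of 0 allows up to 3 reads, which is 0.0774 CPM (reads scaled to library size) in replicate 2 and 0.0812 CPM in replicate 1. The 2 libraries were not copies of each other, since their counts differed by more than read sampling (chi-square of 35.1 per degree of freedom over 14978 genes). This does not show whether they came from separate animals, which rests on the labels. Skeletal muscle was plain in the libraries. The 6 markers of skeletal muscle fibres, among them the actin gene Acta1 and the muscle creatine kinase gene Ckm, summed to 89132 TPM in replicate 2 and 84345 TPM in replicate 1. Which muscle it was rests on the labels.

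As background, MMPs are zinc proteases that cut collagens, laminins, fibronectin and many cell-surface proteins, and most are made as inactive precursors. ADAMTS proteases are secreted relatives that carry thrombospondin repeats and cut proteoglycans, procollagens and other matrix proteins. TIMPs bind MMPs at the active site, and TIMP-3 also inhibits several ADAM and ADAMTS enzymes. In skeletal muscle these genes are known for remodelling of the connective tissue around fibres, vessels and tendon.

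The families share a catalytic site that can be read in the coding sequence of all 23 Mmp and all 19 Adamts genes, once in each. It is shown for the 3 Mmp genes and the 2 Adamts genes with the highest levels and for Adamts5, a known cartilage aggrecanase, from the GENCODE M21 transcripts on mm10. Capitals mark the codons of the 3 histidines that hold the zinc and of the glutamate that takes part in catalysis. The 33 bases lie in 1 exon in the Mmp genes and are joined from 2 exons in the Adamts genes, so those coordinates span an intron.
Mmp2, chr8:92839279-92839311, plus strand: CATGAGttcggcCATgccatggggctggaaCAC
Mmp15, chr8:95368585-95368617, plus strand: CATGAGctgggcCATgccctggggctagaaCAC
Mmp14, chr14:54437627-54437659, plus strand: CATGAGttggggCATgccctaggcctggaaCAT
Adamts1, chr16:85799191-85799545, minus strand: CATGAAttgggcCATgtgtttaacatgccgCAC
Adamts2, chr11:50775403-50776134, plus strand: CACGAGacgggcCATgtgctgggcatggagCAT
Adamts5, chr16:85878015-85887826, minus strand: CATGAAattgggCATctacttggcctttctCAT
Mmp2 and Mmp15 shared 29 of the 33 bases, Mmp2 and Mmp14 shared 27, and Mmp2 and Adamts1 shared 20. Codon 8 of the site encodes glycine in all 23 Mmp genes and in 13 Adamts genes. It encodes asparagine in 5 Adamts genes, Adamts1, Adamts4, Adamts9, Adamts15 and Adamts20, and serine in Adamts8.

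On the inhibitor side, the first 27 bases that encode the mature TIMP are shown for all 4 genes, because the cysteine that starts the mature protein is the residue that reaches the zinc of the protease. Capitals mark the codons of the first 2 cysteines.
Timp2, chr11:118354986-118355012, minus strand: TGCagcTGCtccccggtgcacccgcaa
Timp3, chr10:86300923-86300949, plus strand: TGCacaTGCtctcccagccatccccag
Timp4, chr6:115251665-115251691, minus strand: TGCagcTGTgcgcctgcgcacccccag
Timp1, chrX:20871111-20871137, plus strand: TGTagcTGTgccccaccccacccacag
Over this stretch Timp4 and Timp1 were the most alike pair, with 21 identical bases of 27, and Timp3 and Timp1 the least, with 16.

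Inhibitor transcripts outnumbered MMP transcripts in both animals. The 4 Timp genes summed to 71.6 TPM in replicate 2 and 97.4 TPM in replicate 1 (mean 84.5 ± 18.2, SD, n = 2), and the 23 Mmp genes to 41.0 TPM in replicate 2 and 57.7 TPM in replicate 1 (mean 49.3 ± 11.8). The TIMP to MMP ratio was therefore nearly equal, 1.75 in replicate 2 and 1.69 in replicate 1 (1.72 ± 0.0406), although both sums were lower in replicate 2. The 19 Adamts genes summed to 43.3 TPM in replicate 2 and 42.6 TPM in replicate 1 (42.9 ± 0.445). Set against MMP and ADAMTS transcripts together, the TIMP sum came to 0.850 in replicate 2 and 0.971 in replicate 1. All 46 genes together made up 0.0156% of the TPM in replicate 2 and 0.0198% in replicate 1.

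**Figure D1:**
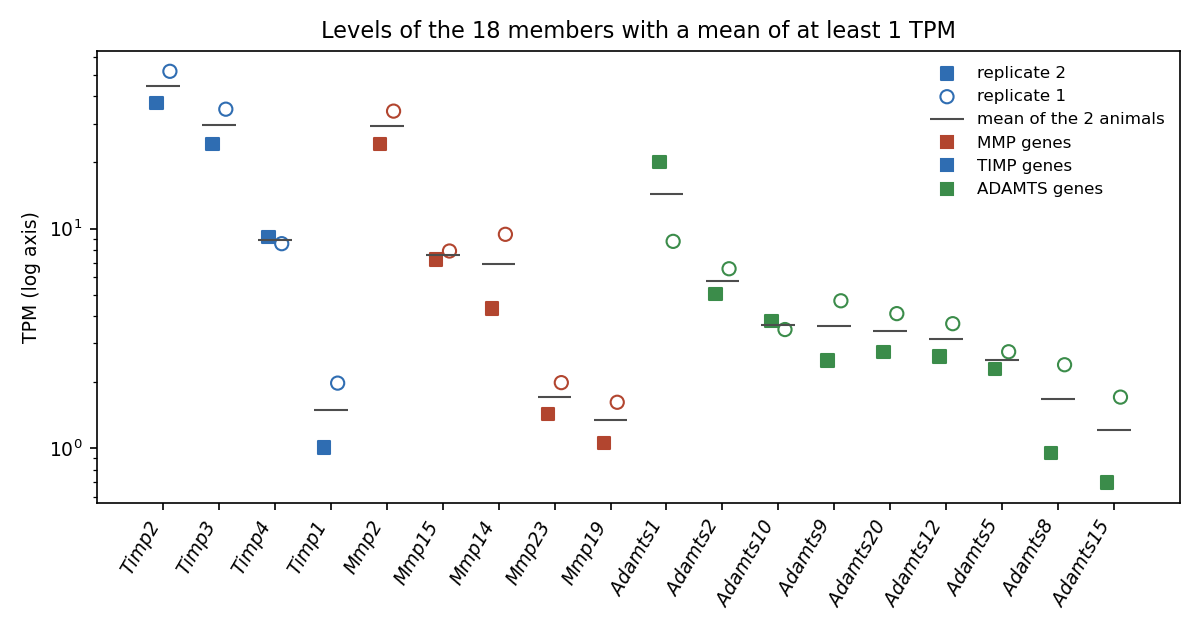
TPM (log axis) of the 18 genes that averaged 1 TPM or more, grouped as Timp, Mmp and Adamts genes. Filled squares are replicate 2, open circles replicate 1 and lines the mean of the 2 animals. Timp2, Timp3 and Mmp2 stand highest, and Adamts1 is the one gene of the upper ranks with replicate 2 well above replicate 1.

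Of the inhibitors, Timp2 was the most abundant of all 46 genes, with 37.3 TPM in replicate 2 and 51.9 TPM in replicate 1. TIMP-2 both inhibits MMP-2 and links its precursor to MMP-14 at the cell surface. Timp3, whose product stays bound to the matrix, had 24.2 TPM in replicate 2 and 34.9 TPM in replicate 1. Together Timp2 and Timp3 carried 85.8% of the TIMP sum in replicate 2 and 89.2% in replicate 1. Timp4, known for its expression in heart and other striated muscle, followed with 9.16 TPM in replicate 2 and 8.53 TPM in replicate 1. Timp1, an inducible inhibitor, was lowest with 1.01 TPM in replicate 2 and 1.98 TPM in replicate 1. The order Timp2, Timp3, Timp4, Timp1 held in each animal, but the ranges of Timp2 and Timp3 nearly met, Timp2 in replicate 2 being only slightly above Timp3 in replicate 1.

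Mmp2, which encodes gelatinase A, led the proteases with 24.2 TPM in replicate 2 and 34.2 TPM in replicate 1. It carried 59.0% of the MMP sum in replicate 2 and 59.4% in replicate 1. Its ratios to the 2 most abundant inhibitors were close to equal in the 2 animals: the Timp2 to Mmp2 ratio was 1.54 in replicate 2 and 1.52 in replicate 1, and the Timp3 to Mmp2 ratio was 0.999 in replicate 2 and 1.02 in replicate 1. The membrane-bound proteases came next. Mmp15 had 7.22 TPM in replicate 2 and 7.90 TPM in replicate 1. Mmp14, whose product activates the MMP-2 precursor, had 4.32 TPM in replicate 2 and 9.41 TPM in replicate 1. Mmp15 and Mmp14 changed places between the animals, so their order is not settled at gene level. By the leading transcript of each gene, Mmp15 was the higher in both animals. Mmp15-201 had 6.66 TPM in replicate 2 and 7.65 TPM in replicate 1. Mmp14-201 had 3.71 TPM in replicate 2 and 6.78 TPM in replicate 1. Mmp23, a membrane protease with a cysteine-array domain, had 1.43 TPM in replicate 2 and 1.99 TPM in replicate 1. Mmp19 had 1.06 TPM in replicate 2 and 1.62 TPM in replicate 1. These 5 were the only Mmp genes at 1 TPM or more in both animals in the gene tables. In the second transcript table, described below, Mmp28 reached this level too, with 1.39 TPM in replicate 2 and 1.11 TPM in replicate 1.

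The ADAMTS genes were spread more evenly, except for Adamts1. This gene, for a protease of versican and aggrecan, had 20.1 TPM in replicate 2 and 8.74 TPM in replicate 1. It carried 46.5% of the ADAMTS sum in replicate 2 against 20.5% in replicate 1. Without it the other 18 genes summed to 23.1 TPM in replicate 2 and 33.9 TPM in replicate 1, so the near-equal family sums came from opposite differences. Adamts2, a procollagen N-propeptidase, had 5.03 TPM in replicate 2 and 6.56 TPM in replicate 1. Adamts10, linked to fibrillin microfibrils, had 3.80 TPM in replicate 2 and 3.47 TPM in replicate 1. Most of this value came from transcripts not annotated as protein-coding, so its place among these genes does not hold for coding transcripts. Among the versican-cleaving members, Adamts9 had 2.51 TPM in replicate 2 and 4.69 TPM in replicate 1. Adamts20, a close relative of Adamts9, had 2.75 TPM in replicate 2 and 4.10 TPM in replicate 1. Adamts5 had 2.30 (replicate 2) and 2.75 TPM (replicate 1). Adamts12, whose product cuts cartilage oligomeric matrix protein, had 2.61 TPM in replicate 2 and 3.69 TPM in replicate 1. Adamts5 was the lowest of these 5 genes below Adamts2 in each animal, and the order of the other 4 differed between the animals. Adamts8 had 0.950 TPM in replicate 2 and 2.40 TPM in replicate 1. Adamts15 had 0.700 TPM in replicate 2 and 1.71 TPM in replicate 1, so both reached 1 TPM in replicate 1 alone.

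At 1 TPM or more in both animals stood 16 of the 46 genes: all 4 Timp, 5 of 23 Mmp and 7 of 19 Adamts genes. A mean of at least 1 TPM was reached by 18 genes. Of the other 28, 21 had reads and 7 had none in either animal: Mmp1a, Mmp1b, Mmp7, Mmp10, Mmp20, Mmp24 and Adamts13, the last a liver-made protease of von Willebrand factor. For those 7 the floor of 3 reads lies between 0.0297 and 0.0977 TPM in replicate 2 and between 0.0298 and 0.0981 TPM in replicate 1. Means of 0.5 to 1 TPM were held by 4 genes. Adamts3, a procollagen propeptidase, averaged 0.980 TPM, Mmp28 0.820 TPM, Adamts14, another propeptidase, 0.775 TPM and Mmp11 0.700 TPM. The means of the other 17 genes with reads ran from 0.00500 TPM for Mmp8, Mmp13 and Mmp21 to 0.415 TPM for Adamts4. In ascending order between them came Mmp25, Mmp12, Adamts18, Adamts19, Mmp3, Mmp27, Mmp9, Adamts6, Mmp17, Adamts16, Mmp16 level with Adamts17, and Adamts7. Mmp9, the gelatinase B of neutrophils and macrophages, had 0.250 TPM in replicate 2 and 0.160 TPM in replicate 1. The 5 neutrophil markers summed to 0.210 (replicate 2) and 0.230 TPM (replicate 1), with Ly6g listed at 0 in both animals.

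A block of Mmp genes on chromosome 9 was nearly free of reads. There, 10 Mmp genes lie side by side over 427 kb (chr9:7272514-7699585, mm10) with no other protein-coding gene among them: Mmp13, Mmp12, Mmp1b, Mmp3, Mmp1a, Mmp10, Mmp8, Mmp27, Mmp20 and Mmp7. They include the genes of the collagenases, of the stromelysins encoded by Mmp3 and Mmp10, of matrilysin and of macrophage elastase. The whole cluster held 10 reads in replicate 2 and 21 reads in replicate 1. Its highest value was 0.230 TPM, for Mmp27 in replicate 1, and 5 of its genes had no read. All 5 Mmp genes at 1 TPM or more lay elsewhere, but 8 of the 13 Mmp genes outside the cluster also averaged under 1 TPM, down to 0 for Mmp24, so the levels overlapped. Related genes in the cluster, such as Mmp1a and Mmp1b, could share reads, but neither of these 2 had any.

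Promoter sequence differed between the cluster and the other genes. RefSeq promoters (GRCm38.p6, the assembly named mm10, from 250 bases before to 50 after the start) were found for 32 of the 46 genes, 35 promoters in all. The motif TGANTCA, the letters bound by AP-1 factors and searched on both strands, was in 8 of them, against 7.81% of all 32851 promoters. All 8 belonged to genes of the chromosome 9 cluster. GGGCGG, the GC box, was in 18 of the 35 promoters, none of them in the cluster, against 35.7% of all promoters. TATAAA was in 11, of which 9 belonged to cluster genes, against 13.6% of all. None of these motifs contains another, though matches can lie side by side. The cyclic AMP motif TGACGTCA was in none of the 35 and in 1.79% of all, which says only that these letters are not in these windows. The promoters below are the 120 bases before the RefSeq start of 3 cluster genes with an AP-1 match and of 4 abundant genes outside it. Capitals mark matches to the AP-1, GC box and TATA letters on either strand.
Mmp13, chr9:7272394-7272513, plus strand: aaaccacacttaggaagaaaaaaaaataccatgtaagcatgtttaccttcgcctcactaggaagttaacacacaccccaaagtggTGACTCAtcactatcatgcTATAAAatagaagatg
Mmp3, chr9:7445702-7445821, plus strand: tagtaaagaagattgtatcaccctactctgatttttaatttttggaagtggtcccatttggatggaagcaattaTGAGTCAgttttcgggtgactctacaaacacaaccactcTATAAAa
Mmp10, chr9:7502222-7502341, plus strand: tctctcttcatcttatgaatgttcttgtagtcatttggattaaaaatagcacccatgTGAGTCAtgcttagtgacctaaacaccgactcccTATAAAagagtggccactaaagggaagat
Timp2, chr11:118355412-118355531, minus strand: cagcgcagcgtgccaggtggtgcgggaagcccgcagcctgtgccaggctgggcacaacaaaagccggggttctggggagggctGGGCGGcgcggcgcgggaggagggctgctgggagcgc
Timp3, chr10:86300292-86300411, plus strand: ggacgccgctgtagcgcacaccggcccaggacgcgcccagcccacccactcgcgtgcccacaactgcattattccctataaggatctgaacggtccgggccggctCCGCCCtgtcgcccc
Adamts1, chr16:85803114-85803233, minus strand: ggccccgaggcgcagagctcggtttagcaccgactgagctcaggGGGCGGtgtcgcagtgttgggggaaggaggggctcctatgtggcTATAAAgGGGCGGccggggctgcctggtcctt
Mmp14, chr14:54431478-54431597, plus strand: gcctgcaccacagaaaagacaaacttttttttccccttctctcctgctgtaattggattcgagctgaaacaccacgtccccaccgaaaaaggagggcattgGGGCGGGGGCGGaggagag
In Adamts1 a TATA match stands directly beside a GC box. G and C made up 37.2% to 53.2% of the 250 bases before the start in the cluster promoters (median 40.2%) and 53.6% to 79.2% in the others (median 63.6%), against a median of 52.4% over all promoters. The 12 genes outside the cluster with a RefSeq promoter and a mean of at least 1 TPM included 10 with a GC box, all but Timp4 and Adamts12, and 1 with a TATA match, Adamts1. A GC box was about as frequent among the genes outside the cluster with a mean under 1 TPM, in 8 of 10, and Mmp24 and Adamts13 carried one and had no reads. All 10 cluster genes had an entry. The 14 genes with no entry all lie outside the cluster, so their promoters were not searched. They included Mmp2, Mmp9, Mmp16, Mmp17, Mmp19, Adamts5, Adamts8, Adamts15 and Adamts4. The contrast with the cluster therefore covers only part of the other genes.

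**Figure D2:**
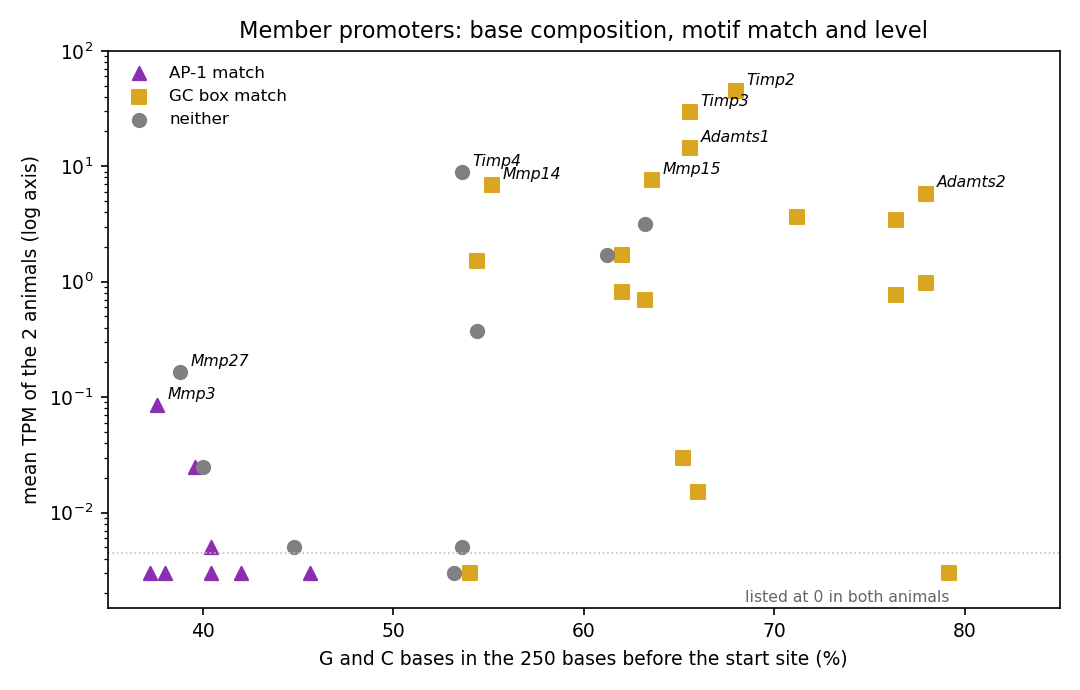
Each point is 1 RefSeq promoter of a member gene, with the percentage of G and C in the 250 bases before the start on the x axis and the gene's mean TPM on the y axis (log axis; points under the dotted line are listed at 0 in both animals). Triangles hold an AP-1 match, squares a GC box and circles neither. All 8 triangles lie at 45.6% G and C or less and at a mean of 0.0850 TPM or less.

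Transcripts named by GENCODE showed whether 1 product stood for the gene. Over the 18 genes that averaged 1 TPM or more, the main transcript carried a median of 80.7% of the gene's TPM in the first transcript table, with 9 genes at 80% or more and 1 below 50%. Adamts5 had a single transcript, and Timp3-201 carried 95.4% ± 1.44 of Timp3 (SD, n = 2). Adamts10 was the gene below 50%: its leading entry of 15, Adamts10-213, is annotated as a retained intron and carried 23.2% in replicate 2 and 11.2% in replicate 1. Its protein-coding entries were low. Adamts10-201 had 0.520 TPM in replicate 2 and 0.360 TPM in replicate 1. Adamts10-214 had 0.170 (replicate 2) and 0.440 TPM (replicate 1), and Adamts10-215 had 0.220 (replicate 2) and 0.140 TPM (replicate 1). For Mmp2, the full-length Mmp2-201 of 3078 bases carried 69.2% ± 0.368 and the short protein-coding entry Mmp2-203, of 674 bases, 30.4% ± 0.257. Mmp14-201 carried 86.1% in replicate 2 and 72.1% in replicate 1, while the retained-intron entry Mmp14-207 was listed at 0 in replicate 2 and at 1.68 TPM in replicate 1.

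Timp2 had 2 entries, and the tables did not share an order for them. Timp2-201, of 3709 bases, carried 64.7% ± 0.561 in the first table and 45.2% ± 0.421 in the second, and the short Timp2-202, of 718 bases, 35.3% ± 0.561 and 54.8% ± 0.421. The difference between the tables was far larger than that between the animals. Adamts1-201 likewise carried 82.4% ± 2.10 in the first table and 61.3% ± 0.878 in the second, where the 2338-base Adamts1-202 held 32.0% ± 0.390. At gene level, both tables were rescaled to nuclear protein-coding genes. Over the 18 genes that averaged 1 TPM or more, the second over the first ran from 0.748 for Timp4 to 1.23 for Timp2 (median 0.848). Timp2 stood highest in either table. Among genes under 1 TPM the tables differed more, up to 6.29 for Mmp12, which had 1 expected count in each animal.

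**Figure D3:**
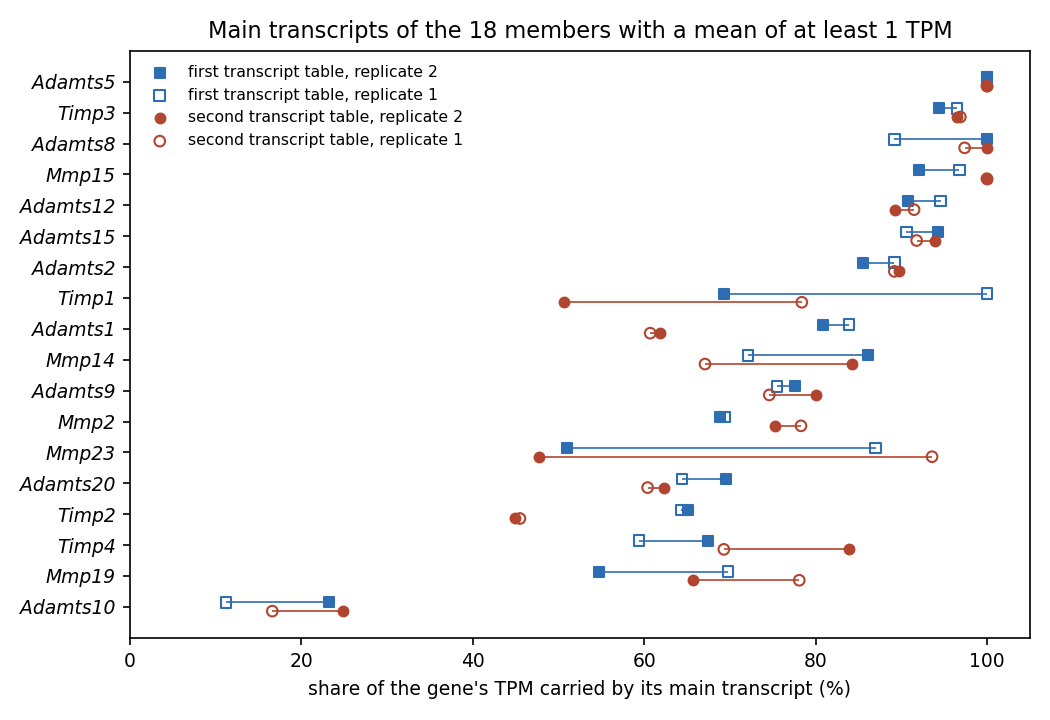
Share of a gene's TPM carried by its main transcript, in percent, for the 18 genes that averaged 1 TPM or more. Squares are the first and circles the second transcript table, filled for replicate 2 and open for replicate 1, with a line joining the animals. Timp2 and Adamts1 show tight pairs that differ between the tables, while Mmp23 and Timp1, both of low count, differ widely between the animals.

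Between the animals most of these genes leaned 1 way. Of the 22 with a mean of at least 0.5 TPM, 17 were lower and 4 higher in replicate 2, with a median log2 ratio of replicate 2 over replicate 1 of -0.49 (TPM + 0.1); of 13033 genes at that level, 49.3% were lower in replicate 2 and the median was 0.00. A gene was counted as past the criteria where the mean expected count was at least 50, TPM + 0.1 differed by 2-fold or more and the deposited credibility intervals did not overlap. Over all genes 257 of 11632 (2.21%) passed, 52 (0.447%) higher and 205 (1.76%) lower in replicate 2. Among the 23 member genes with enough counts, 6 passed (26.1%): 1 higher and 5 lower (21.7%) in replicate 2. With 1 group these values compare 2 mice, and no p-value can be given. In bulk tissue, fewer cells of a type and less RNA per cell cannot be told apart.

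**Figure D4:**
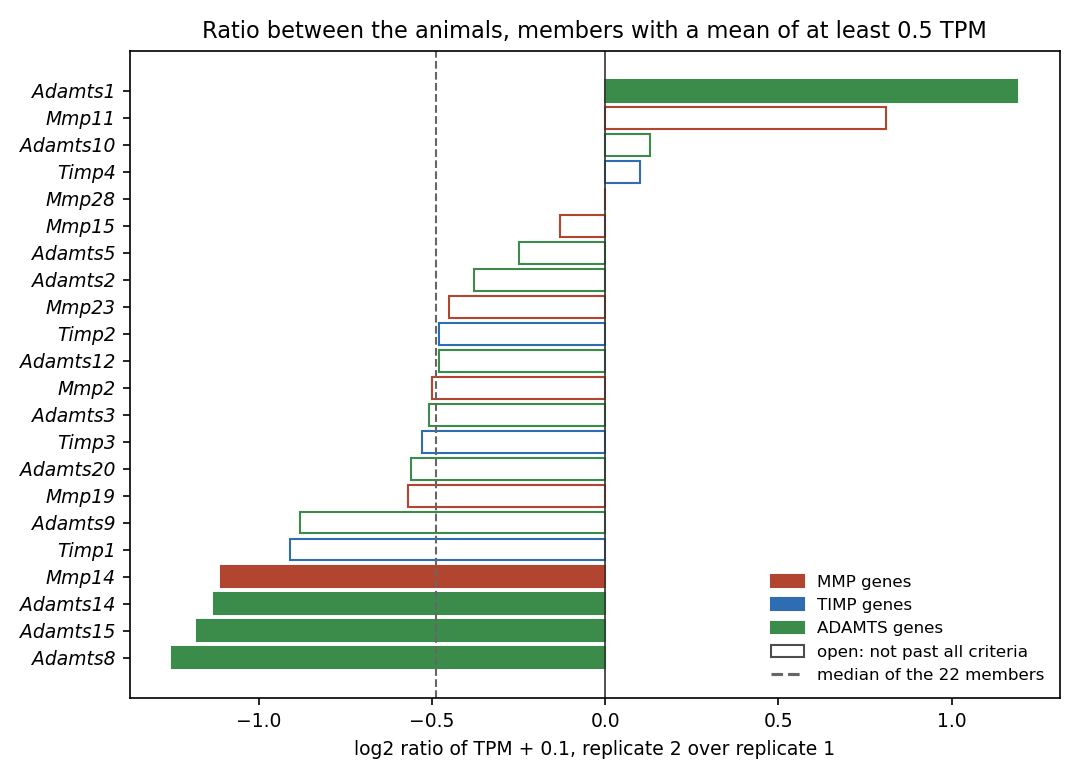
Bars give the log2 ratio of TPM + 0.1, replicate 2 over replicate 1, for the 22 genes that averaged 0.5 TPM or more. Filled bars are past all criteria, open bars are not, and the dashed line is the median of the 22, -0.49. Adamts1 is the only filled bar on the right, at 1.19.

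Adamts1 was the 1 gene higher, with a log2 ratio of 1.19, a credibility interval from 18.7 TPM upward in replicate 2 and one of 7.94 to 9.53 TPM in replicate 1, with 2677 expected counts in replicate 2 and 1175 in replicate 1. The lower ones were Adamts8 (-1.25), Adamts15 (-1.18), Adamts4 (-1.15), Adamts14 (-1.13) and Mmp14 (-1.11). Adamts4, an aggrecanase, had 0.220 TPM in replicate 2 and 0.610 TPM in replicate 1. Adamts14 had 0.450 (replicate 2) and 1.10 TPM (replicate 1). Adamts17, at -1.26, had overlapping intervals and did not pass. The retained-intron entry given above is part of the Mmp14 value. Mmp14-201 alone had 3.71 TPM in replicate 2 and 6.78 TPM in replicate 1, less than 2-fold apart. On CPM with TMM factors the log2 ratio of Mmp14 was -0.94, and it no longer passed. With a pseudocount of 1 TPM, Adamts1 alone of the 6 passed, and with a minimum mean count of 200, Adamts1, Adamts15 and Mmp14 did.

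Genes that lie together did not always differ together. Adamts15 and Adamts8 stand next to each other on chromosome 9, 20.1 kb apart, and had -1.18 and -1.25. Adamts1 and Adamts5 are neighbours on chromosome 16, 53.1 kb apart with no protein-coding gene between them, yet had 1.19 and -0.25, so that the Adamts1 to Adamts5 ratio was 8.74 in replicate 2 and 3.18 in replicate 1. The main inhibitors and Mmp2 had closely similar ratios: Timp2 -0.48, Mmp2 -0.50 and Timp3 -0.53. Timp1 had -0.91 with 24 expected counts in replicate 2 and 46 in replicate 1, too few to be tested. Timp4 (0.10) and Adamts10 (0.13) were near 0, and their sign turned under other settings.

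Overlapping genes limit a few values, since no source used here says whether the counting used strand. Mmp11 shares 155 exonic bases with Chchd10 on the opposite strand, at 642 TPM in replicate 2 and 473 TPM in replicate 1. The value of Mmp11, which had 0.920 TPM in replicate 2 and 0.480 TPM in replicate 1, is therefore uncertain, and that of Adamts4 is uncertain too. Mmp19 shares 789 exonic bases with an opposite-strand gene at 1.30 TPM in replicate 2 and 1.43 TPM in replicate 1. Mmp19 itself had 1.06 TPM in replicate 2 and 1.62 TPM in replicate 1. Its place at 1 TPM or more in both animals is therefore uncertain as well. Mmp24 shares 637 exonic bases with the opposite-strand gene BC029722, at 9.03 TPM in replicate 2 and 8.69 TPM in replicate 1, but itself had no reads. Timp1, Timp3 and Timp4 each lie within a synapsin gene on the opposite strand, of which Syn2 was the highest with 0.530 TPM in replicate 2 and 0.380 TPM in replicate 1.

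Cell type markers also differed between the animals. Fibroblast markers were lower in replicate 2 in 9 of 9 genes, 3 of them past the criteria (median log2 ratio -0.44), and summed to 958 TPM in replicate 2 and 1815 TPM in replicate 1. Tendon cell markers were lower in 8 of 8, 3 past the criteria (median -0.71), at 108 (replicate 2) and 160 TPM (replicate 1). Schwann cell markers were lower in 9 of 9, 8 past the criteria (median -1.86), at 111 (replicate 2) and 482 TPM (replicate 1). Macrophage markers were lower in the 9 (of 10) that reached 0.5 TPM, with none past the criteria (median -0.63), at 50 (replicate 2) and 71.2 TPM (replicate 1). Adipocyte markers went the other way, higher in the 7 (of 8) that reached 0.5 TPM, with 2 past the criteria (median 0.82), at 138 (replicate 2) and 109 TPM (replicate 1). Endothelial (median 0.07), smooth muscle and pericyte (-0.06), satellite cell (0.13) and muscle fibre markers (0.08) had medians close to 0, with no gene past the criteria. Members of each of these lists went both ways. Endothelial markers summed to 61.3 (replicate 2) and 57.6 TPM (replicate 1), and smooth muscle and pericyte markers to 115 (replicate 2) and 147 TPM (replicate 1). Satellite cell markers summed to 29.5 (replicate 2) and 47.5 TPM (replicate 1), with Sdc4 at -0.94. None of these markers was listed at 0 in both animals. Their part in the values of the protease and inhibitor genes was not tested.

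The substrates of these enzymes were lower in replicate 2 in the 13 (of 16) that reached 0.5 TPM, with a median of -0.47, and 3 were past the criteria. The collagen I genes Col1a1 and Col1a2 were the highest, at 326 and 220 TPM in replicate 2 against 730 and 453 TPM in replicate 1, and Comp, for cartilage oligomeric matrix protein, differed most, at -1.18. The aggrecan gene Acan averaged 0.105 TPM, while Vcan, for versican, had 2.79 TPM in replicate 2 and 4.41 TPM in replicate 1. Procollagen processing partners were lower in 3 of 3 at 0.5 TPM (median -0.58, none past the criteria), led by the enhancer Pcolce, with 26.8 (replicate 2) and 43.1 TPM (replicate 1) and a log2 ratio of -0.68, and the C-proteinase Bmp1, with 6.68 (replicate 2) and 8.88 TPM (replicate 1).

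Activators of the protease precursors were present. Furin, the convertase that cuts MMP-14 and many ADAMTS precursors, had 16.5 TPM in replicate 2 and 16.2 TPM in replicate 1. Plau, for urokinase, had 9.68 (replicate 2) and 12.7 TPM (replicate 1). Of 6 activators at 0.5 TPM 4 were lower and 2 higher in replicate 2 (median -0.34), the convertase Pcsk5 the most, at -0.57. Plg, for plasminogen, which is made in liver, had no reads. Other inhibitors were lower in 5 of 5 (median -0.17), with the cystatin gene Cst3 at 236 (replicate 2) and 265 TPM (replicate 1) and Serpine2 at 31.6 (replicate 2) and 34.0 TPM (replicate 1). The receptors were lower in 3 of 3 (median -0.25): Bsg, an inducer of MMPs, had 214 (replicate 2) and 238 TPM (replicate 1), the clearance receptor Lrp1 had 19.7 (replicate 2) and 23.4 TPM (replicate 1), and Cd44 was at -0.35. None of these 3 lists held a gene past the criteria.

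Related protease families had medians nearer 0. The ADAMTS-like genes, which lack the protease domain, had a median of 0.04, with 2 lower and 4 higher; Adamtsl5 had 11.1 TPM in replicate 2 and 9.76 TPM in replicate 1, Adamtsl4 had 10.4 (replicate 2) and 8.46 TPM (replicate 1), and Adamtsl1 was furthest from 0, at -0.57. ADAM sheddases were lower in 6 of 6 (median -0.23), led by Adam9, at 17.7 (replicate 2) and 17.9 TPM (replicate 1), and Adam15, at 9.39 (replicate 2) and 12.6 TPM (replicate 1), with Adam10 furthest from 0, at -0.55. Cysteine cathepsins had 3 lower and 2 higher (median -0.17), with Ctsb at 94.4 (replicate 2) and 86.4 TPM (replicate 1), Ctsl at 39.6 (replicate 2) and 45.8 TPM (replicate 1) and Ctsk furthest from 0, at -0.88. None of the genes in these 3 lists was past the criteria. Of the regulators, 5 were lower and 3 higher in replicate 2 (median -0.23). Jun had 38.6 TPM in replicate 2 and 35.9 TPM in replicate 1. Egf had 7.79 (replicate 2) and 6.79 TPM (replicate 1). Fos (-1.15), Junb (-1.11) and Fosl2 (-1.02), which encode other AP-1 subunits, were past the criteria.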

How the data were processed

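Total RNA-seq of 2 gastrocnemius libraries was analysed. Per the deposited notes beside the tables, the authors made the gene table and first transcript table from alignments to the transcriptome (mm10, GENCODE M21) and the second transcript table from the reads and an index. Column layouts are those of RSEM and kallisto (not given in the sources used here: program names, releases). The authors deposited expected counts (estimated reads, not necessarily whole), TPM, FPKM (used only as an alternative) and the percent of each gene carried by each transcript, recomputed here from transcript TPM. The bounds of the credibility interval of TPM, entered here as a score, were also deposited by the authors, with no level stated in the notes or labels.

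All 55536 Ensembl genes of the 81881 listed features matched the M21 annotation. The log2 ratio is replicate 2 over replicate 1 on TPM + 0.1. With 2 samples of 1 group no model was fitted and no p-value was computed. The comparison step was tested on simulated counts with read sampling as the only spread. That test does not cover the wider spread between these 2 libraries. edgeR 4.0.16 (R 4.3.3) gave TMM factors for an alternative. Python 3.11.15, pandas 2.3.3 and matplotlib 3.10.9 did the rest. Named genes are every member, and of each of 9 related lists the 2 highest and the 1 of largest absolute ratio with a mean of at least 1 TPM. Acan, Vcan, Plg, Junb, Fosl2 and the genes overlapping members were added after their values were seen. The single marker genes named in the text also fall outside this rule. Some items that this rule or the overlaps would name are not reported here. Members and the 19 lists (142 symbols, all found) were chosen with earlier results of these data known. Marker lists overlap: Comp and collagen genes are also substrates. Floors and intervals cover counting or read assignment only. Alternatives were the second transcript table, TPM rescaled over nuclear protein-coding genes, the posterior mean TPM, other pseudocounts, filters and thresholds, and leaving out each animal.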

Additional observations from a re-analysis of the deposited data

How the results depend on the processing

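The family sums depended on the scale. In the second transcript table the sums were 66.0 TPM for MMP, 145 TPM for TIMP and 63.1 TPM for ADAMTS genes. Rescaled over nuclear protein-coding genes they were 120, 206 and 104 TPM. The second table rescaled in the same way, an alternative chosen after seeing the data, gave 98.0, 215 and 93.9 TPM. The posterior mean TPM gave 45.3 for ADAMTS genes. Genes at 1 TPM or more in both animals numbered 19 in the second table and 22 after rescaling, against 16. The TIMP to MMP ratio was 2.20 in the second table and 1.62 with the posterior mean, above 1 in each. Without replicate 1 or replicate 2, the sums ranged from 41.0 to 57.7 (MMP), 71.6 to 97.4 (TIMP) and 42.6 to 43.3 (ADAMTS), the ratio from 1.69 to 1.75, the number of genes at 1 TPM from 16 to 20, and the median main-transcript share from 79.2% to 85.4%. Genes past the criteria numbered 1 with a pseudocount of 1 and 3 with a minimum count of 200, against 6; without the rule on intervals, also added after seeing the data, there were 7. The median log2 ratio was -0.24 with no filter. That setting brings in the 24 genes under 0.5 TPM, among them the 7 with no reads, whose log2 ratio is 0.00 by construction. The causes of the other shifts were not tested. Of the 18 genes that averaged 1 TPM or more, 16 kept 1 sign in all settings; Adamts10 ranged from -0.28 to 0.13 and Timp4 from -0.06 to 0.25. No paired analysis was possible because the series holds 1 group. Ratios between the animals need both libraries, so leaving 1 out gave no value. With 2 animals, each SD rests on 1 difference, and genes under 50 counts could not be compared.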
